A study of Phaseolus vulgaris with 21 samples.

Results

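Transcripts of 5 enzymes that make oxidised fatty acids and jasmonate were followed through leaf and nectaries of the common bean, Phaseolus vulgaris, of the variety Blue Lake 274. They are the lipoxygenases VLXB and LOC100811820, the allene oxide synthase AOS2, the allene oxide cyclase AOC6 and the 12-oxophytodienoate reductase LOC100818208. Each was picked by its soybean gene symbol in the row description of the deposited table, which gave 5 of 6359 rows. The rule itself uses no measured value, but the 5 names were chosen with earlier results of these data known. RNA was sequenced from 7 tissues or stages with 3 libraries each. Leaf was compared with 2 extrafloral nectary tissues (EFN), one from the attachment of the terminal trifoliate leaf (leaf EFN) and one on the stem where the lateral trifoliate leaves attach (stem EFN). Floral nectaries (FN) were taken at 4 stages: pre1, 24 h before the flower opened, pre2, 12 h before, secretory, in the open flower 3 h after dawn, and post, 12 h after the secretory stage. All plants were of this 1 cultivar with no treatment named in the labels, and grew at 23 °C under a cycle of 16 h light and 8 h dark. Nectaries were cut out by hand, and no hour of collection is given for leaf or EFN. In the flower, stage and time of day change together, as post followed the secretory stage by 12 h and pre1 and pre2 were set by hours before opening. Stage and time of day thus cannot be told apart. The labels describe RNA samples in triplicate without naming separate plants, so p-values measure only the spread between libraries, which may be technical.

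Jasmonate synthesis starts in the chloroplast, where a 13-lipoxygenase adds oxygen to linolenic acid. Allene oxide synthase and allene oxide cyclase turn the product into 12-oxophytodienoic acid (OPDA), which a reductase and rounds of beta-oxidation in the peroxisome convert to jasmonic acid. A 9-lipoxygenase oxidises the same fatty acids at another carbon and feeds other oxylipins. Jasmonate rises after wounding in many plants, induces extrafloral nectar in several species including lima bean, and takes part in flower opening and floral nectar secretion in Brassica and tobacco.

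Values are the authors' normalized read values, in which bean reads were assigned to soybean transcripts, so each name is that of the soybean transcript matched and close copies may share reads. They are not divided by transcript length, so levels are compared between tissues for a transcript and not between transcripts. Levels are mean ± SD with n = 3. Differences are log2 differences of the value + 1, tested in limma over 6351 rows and called at an adjusted p under 0.05. In whole tissue, fewer cells of a type and less RNA per cell cannot be told apart.

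The values of a library summed to between 2616502 and 4270943, and libraries of a group correlated at 0.939 to 0.986. The labels were checked against marker rows. The summed level of 3 mesophyll markers was 53151 to 143502 in leaf, 8882 to 29345 in leaf EFN, 30441 to 35232 in stem EFN and 111 to 364 in floral nectaries. LOC100500026, the match to the nectary regulator CRABS CLAW, was listed at 0 in every leaf and EFN library and held 387 to 8113 in floral nectaries, where 3 carpel and ovule markers summed to 2019 to 5969 against at most 24 elsewhere. It is 1 of 4 nectary markers, whose sum was 1369 to 2311 in leaf, 1027 to 1473 in leaf EFN and 2144 to 2417 in stem EFN. That sum does not separate EFN from leaf. Of the 4 rows, 2 were higher and 1 lower in leaf EFN than in leaf, and 2 were higher and 0 lower in stem EFN. Stem EFN libraries 2 and 3 held 13 and 21 of the floral transcript LOC100816972, against 1 in library 1, so calls on named rows that change without those 2 libraries are given; stem EFN is then 1 library, which is assumed to vary like the other groups. Summed values of 3 rapid wound response transcripts in libraries 1, 2 and 3 were 112, 27 and 137 in leaf, 549, 554 and 434 in leaf EFN. Those of stem EFN were 1585, 515 and 253. In floral nectaries the wound sum was 41 to 80 at pre1, 62 to 76 at pre2, 217 to 317 at the secretory stage, and 501, 1148 and 1917 at post. These sums move with several results below, and their part in those results was not tested.

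VLXB encodes lipoxygenase L-5, a member of the vegetative lipoxygenases of soybean, and the table pairs it with the Arabidopsis 9-lipoxygenase LOX5. All 3 leaf libraries were listed at 0. Its values in libraries 1, 2 and 3 were 1420, 2376 and 700 in leaf EFN. Stem EFN held 657, 748 and 9786. Both nectary tissues thus lay above every leaf and floral library, and library 3 of stem EFN stood far above the other stem libraries. In floral nectaries the values were 180, 258 and 88 at pre1, 66, 74 and 93 at pre2, 61, 57 and 186 at the secretory stage, and 204, 137 and 375 at post. Floral stages overlapped one another except post and pre2, where every post library lay above every pre2 library. That pair was not called, and no floral library reached an EFN library. Group means ran from stem EFN (3730 ± 5245) and leaf EFN (1499 ± 841) through post (239 ± 123), pre1 (175 ± 85.1), secretory (101.3 ± 73.4) and pre2 (77.7 ± 13.9) to leaf. Along that order only the steps from leaf EFN to post (adjusted p = 0.00451) and from pre2 to leaf (adjusted p = 3.79e-07) passed the test.

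LOC100811820 is described as a chloroplastic 13S-lipoxygenase 3-1 and is paired with the Arabidopsis 13-lipoxygenases LOX4 and LOX6, the class that opens jasmonate synthesis. Leaf libraries held 474, 410 and 655. Leaf EFN held 1401, 1525 and 1462, and stem EFN 1469, 3069 and 978. Every EFN library lay above every leaf library. Floral values were 170, 82 and 184 at pre1, 133, 102 and 113 at pre2, 219, 277 and 263 at the secretory stage, and 181, 279 and 250 at post, all below leaf. The order of means was stem EFN (1839 ± 1093), leaf EFN (1463 ± 62), leaf (513 ± 127), secretory (253 ± 30.3), post (237 ± 50.3), pre1 (145 ± 55.3) and pre2 (116 ± 15.7). Leaf differed from its neighbours on both sides, with adjusted p = 0.000862 against leaf EFN and 0.0111 against the secretory stage, while no other pair of neighbours differed (adjusted p = 0.0588 for post and pre1, the lowest of them).

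AOS2 encodes allene oxide synthase, the enzyme that commits a 13-hydroperoxide to the jasmonate branch. Leaf libraries held 13, 22 and 54, leaf EFN 126, 127 and 77, and stem EFN 93, 131 and 61. The 6 EFN libraries were all above leaf, by a narrow margin in library 3 of stem EFN. In the flower the values were 11, 9 and 8 at pre1, 6, 8 and 6 at pre2, 8, 11 and 15 at the secretory stage, and 18, 39 and 52 at post. Post lay above every earlier floral library and overlapped leaf, and its 3 libraries followed the order of the wound sum. The libraries of leaf EFN also followed that order, while those of leaf, stem EFN and the earlier floral stages did not. Means fell from leaf EFN (110 ± 28.6) and stem EFN (95 ± 35) to post (36.3 ± 17.2), leaf (29.7 ± 21.5), secretory (11.3 ± 3.51), pre1 (9.33 ± 1.53) and pre2 (6.67 ± 1.15). The steps from stem EFN to post (adjusted p = 0.0083) and from leaf to the secretory stage (adjusted p = 0.0311) passed the test, and those between leaf EFN and stem EFN, post and leaf, and the 3 earlier floral stages did not.

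AOC6 encodes an allene oxide cyclase, which closes the ring of OPDA, and had low values throughout. Leaf libraries held 5, 0 and 0, leaf EFN 10, 4 and 6, and stem EFN 3, 6 and 13. Floral libraries held 25, 13 and 4 at pre1, 4, 3 and 5 at pre2, 5, 2 and 4 at the secretory stage, and 10, 3 and 13 at post. One read was worth an estimated 0.793 to 1.32 units, so these values rest on a few reads each, and every group overlapped leaf. Means ran from pre1 (14 ± 10.5), post (8.67 ± 5.13), stem EFN (7.33 ± 5.13) and leaf EFN (6.67 ± 3.06) to pre2 (4 ± 1), secretory (3.67 ± 1.53) and leaf (1.67 ± 2.89), with no pair of neighbours called.

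LOC100818208 is described as 12-oxophytodienoate reductase 2-like. It is paired with Arabidopsis OPR1, OPR2 and OPR3, of which OPR3 is the peroxisomal enzyme of jasmonate synthesis, so its place in that step is not settled by the match. Leaf libraries held 991, 1732 and 1688, leaf EFN 1077, 1145 and 1618, and stem EFN 1088, 1548 and 803. These 3 tissues overlapped throughout. Floral libraries held 354, 257 and 307 at pre1, 263, 221 and 247 at pre2, 550, 562 and 605 at the secretory stage, and 578, 595 and 702 at post. All floral libraries were below all others, and the secretory and post stages were above both earlier stages without overlap. Means ran from leaf (1470 ± 416), leaf EFN (1280 ± 295) and stem EFN (1146 ± 376) to post (625 ± 67.2), secretory (572 ± 28.9), pre1 (306 ± 48.5) and pre2 (244 ± 21.2). The steps from stem EFN to post (adjusted p = 0.00369) and from the secretory stage to pre1 (adjusted p = 0.00336) passed the test.

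**Figure D1:**
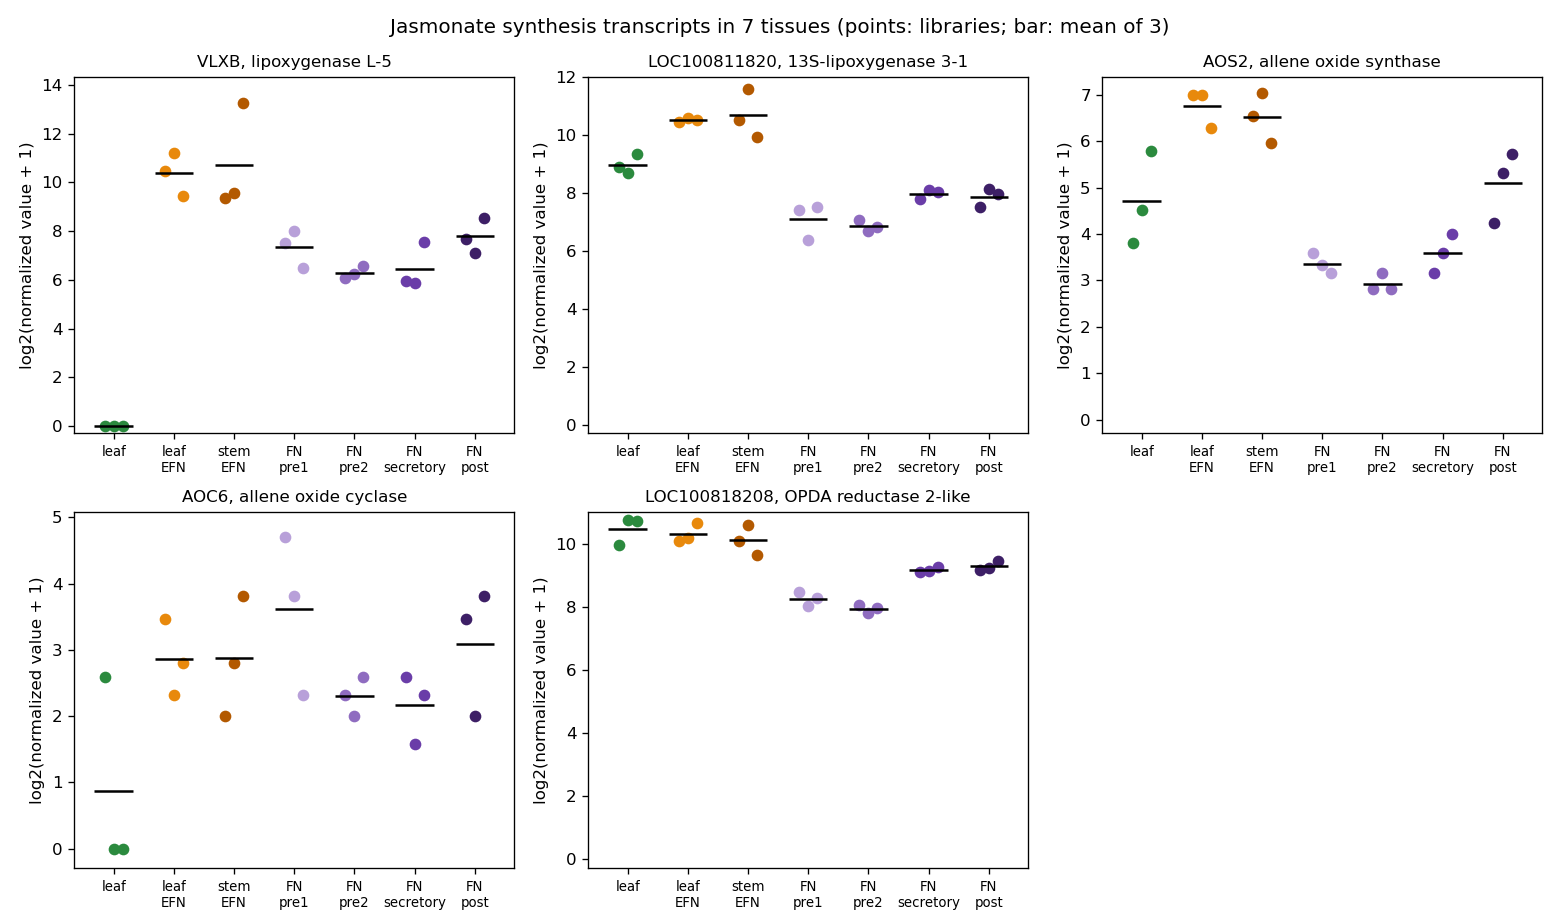
Log2(normalized value + 1) of the 5 transcripts in 7 tissues and stages; each point is a library and each bar the mean of 3. VLXB sits at 0 in leaf, LOC100811820 and AOS2 are highest in the 2 EFN tissues, and LOC100818208 overlaps between leaf (1470 ± 416) and EFN.

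Against leaf, leaf EFN had more of VLXB, LOC100811820, AOS2 and AOC6, 4 of 5, where 46.9% of all rows were called, 28.4% higher and 18.5% lower. Of all calls, 60.5% were higher, and 51.8% after rescaling by median ratios. The 13-lipoxygenase LOC100811820 rose by 1.54 (SE 0.329, adjusted p = 0.000862) and AOS2 by 2.05 (SE 0.445, adjusted p = 0.000963). AOC6 rose by 2.00 (SE 0.712, adjusted p = 0.0274), with 1 leaf library at 5 inside the EFN range. VLXB was called (adjusted p = 5.39e-09), and no fold is given against a tissue listed at 0. LOC100818208 differed by -0.18 (95% interval -0.66 to 0.30, adjusted p = 0.547). The median difference of the 5 was 2.00, beside 0.13 over all rows tested. The call of AOC6 was lost with a pseudocount of 10 (adjusted p = 0.146), when only the libraries compared were fitted (0.0777), and without leaf library 2 (0.114) or 3 (0.111) or leaf EFN library 1 (0.101) or 3 (0.0503).

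Stem EFN, set against the same leaf libraries, gave its own calls for the same 4 names, where 34.8% of rows were called, 22.3% higher and 12.5% lower. Of all calls, 64.1% were higher, and 51.6% after rescaling by median ratios. LOC100811820 rose by 1.70 (SE 0.329, adjusted p = 0.000599), AOS2 by 1.81 (SE 0.445, adjusted p = 0.00394) and AOC6 by 2.01 (SE 0.712, adjusted p = 0.0352), and VLXB had adjusted p = 6.4e-09. LOC100818208 differed by -0.37 (95% interval -0.85 to 0.12, adjusted p = 0.231), and was lower in EFN without leaf library 1 (difference -0.63, adjusted p = 0.0453). With stem EFN libraries 2 and 3 left out, which leaves 1 stem library, AOS2 differed by 1.85 (adjusted p = 0.0617) and AOC6 by 1.14 (adjusted p = 0.525), and neither was called. AOC6 was also lost with a pseudocount of 10 (0.145), when only the libraries compared were fitted (0.142), and without leaf library 2 (0.135) or 3 (0.129) or stem EFN library 2 (0.0692) or 3 (0.154).

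Between the 2 extrafloral tissues none of the 5 was called, where 5.37% of rows were, 2.8% higher in stem EFN and 2.57% lower. The intervals leave room for differences in either direction: -1.22 to 1.90 for VLXB, -0.52 to 0.85 for LOC100811820, -1.17 to 0.69 for AOS2, -1.48 to 1.499 for AOC6 and -0.67 to 0.30 for LOC100818208, as stem EFN minus leaf EFN on the log2 scale. All 5 had unadjusted p above 0.05, from 0.429 to 0.99.

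Floral nectaries, taken as the mean of the 4 stages, were far below EFN in 4 of the 5 transcripts, where 79.2% of rows were called, 46.8% higher and 32.4% lower in the flower. Of all calls, 59.1% were higher in the flower, and 47.7% after scaling to equal upper quartiles. VLXB fell by 3.59 (SE 0.456, adjusted p = 6.01e-07), LOC100811820 fell by 3.14 (SE 0.201, adjusted p = 2.88e-11), AOS2 fell by 2.90 (SE 0.273, adjusted p = 8.5e-09) and LOC100818208 fell by 1.55 (SE 0.141, adjusted p = 5.46e-09). For each of these 4, all floral libraries lay below all EFN libraries. AOC6 differed by -0.076 (95% interval -0.99 to 0.84, adjusted p = 0.878). The median of the 5 was -2.90, against 0.24 over all rows. Carpel and nectary markers and the mesophyll sum separate the same 2 sets of libraries, so nectary type and the other cells in each dissected piece cannot be told apart.

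Set against leaf, all 5 were called, where 75.8% of rows were, 48% higher in the flower and 27.8% lower. Of all calls, 63.4% were higher, and 49.2% after scaling to equal upper quartiles, which moved the median of all rows from 0.38 to -0.023. LOC100818208 fell by 1.82 (SE 0.183, adjusted p = 2.57e-08) and LOC100811820 fell by 1.52 (SE 0.26, adjusted p = 2.86e-05), both without overlap. AOS2 fell by 0.96 (SE 0.352, adjusted p = 0.0189) with post overlapping leaf, and was not called without leaf library 3 (difference -0.42, adjusted p = 0.293). VLXB was higher in every floral library than in leaf (adjusted p = 2.13e-09), and AOC6 rose by 1.93 (SE 0.563, adjusted p = 0.00446) with overlap. This comparison uses the leaf libraries of the EFN comparisons.

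**Figure D2:**
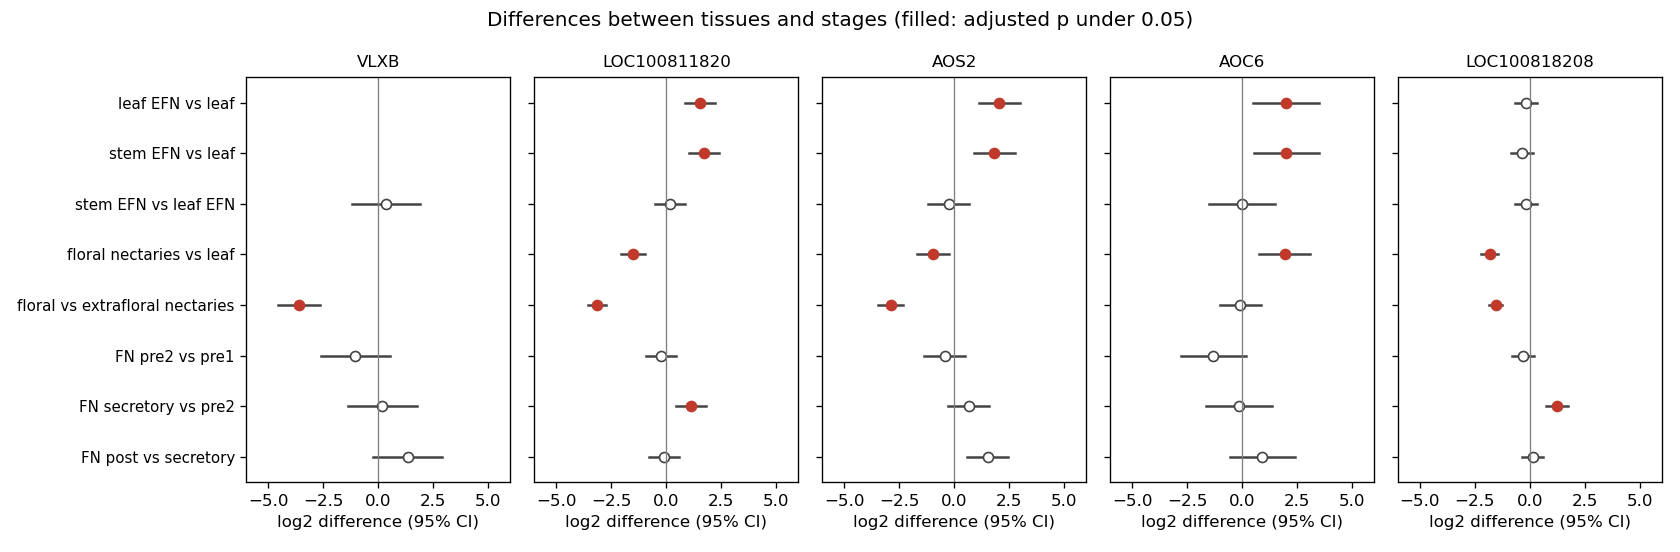
Log2 differences of the 5 transcripts in 8 comparisons with 95% intervals; filled points have an adjusted p under 0.05, and VLXB is not drawn against leaf, where it is listed at 0. LOC100811820 and AOS2 lie above leaf in both EFN tissues, by 1.54 to 2.05, and all but AOC6 lie below EFN in the flower.

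Within the flower, 3 of the 5 differed among the 4 stages, where 57% of rows did: LOC100818208 (F test, adjusted p = 8.77e-05), AOS2 (0.00205) and LOC100811820 (0.0132). VLXB and AOC6 were not called (both adjusted p = 0.233), although VLXB was without stem EFN library 3, which is in no floral stage but enters the shared spread (0.0311), without stem EFN libraries 2 and 3 (0.0383), and when only the floral libraries were fitted (0.0387). From pre1 to pre2 none of the 5 was called, where 19.5% of rows were, 12.4% higher at pre2 and 7.05% lower, with all 5 unadjusted p above 0.05, the lowest 0.082. Of all calls there, 63.8% were higher, and 50.2% after scaling to equal upper quartiles.

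From pre2 to the secretory stage the first lipoxygenase step and the reductase were called, 2 of 5, where 21.4% of rows were called, 12.6% higher and 8.77% lower. LOC100818208 rose by 1.23 (SE 0.231, adjusted p = 0.000847) and LOC100811820 by 1.12 (SE 0.329, adjusted p = 0.0202), both without overlap. The call of LOC100811820 was lost without pre2 library 2 (adjusted p = 0.0712) or 3 (0.06) or secretory library 2 (0.0745) or 3 (0.0567). AOS2 differed by 0.66 (adjusted p = 0.326), VLXB by 0.17 (0.901) and AOC6 by -0.14 (0.918). The secretory stage was also above pre1, without overlap, in LOC100818208 (0.91, adjusted p = 0.00336) and LOC100811820 (0.87, adjusted p = 0.0363). VLXB, AOS2 and AOC6 were not called between those stages. From secretory to post none of the 5 passed, where 5.73% of rows did, 2.63% higher and 3.1% lower. Of all calls there, 45.9% were higher, and 54.8% after rescaling by median ratios. AOS2 came nearest, with a difference of 1.51 (SE 0.445, unadjusted p = 0.00298, adjusted p = 0.0512) and all 3 post libraries above the secretory ones. It passed under median ratios (adjusted p = 0.0373) and equal upper quartiles (0.045) and without stem EFN libraries 2 and 3 (0.0495), and over all settings and left-out libraries its adjusted p ran from 0.0114 to 0.299. AOS2 at post was above pre1 by 1.74 (adjusted p = 0.00293) and above pre2 by 2.17 (adjusted p = 0.000807), comparisons that share the post libraries. The wound sum was also highest at post, and its part in this difference was not tested.

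The authors' deposited table carries yes or no calls for 6 comparisons, with a test not given in the sources used here. It marks VLXB, LOC100811820, AOS2 and LOC100818208 as different between the secretory flower and leaf EFN, a call given to 53.8% of rows in the authors' deposited table. Against stem EFN, where 50.0% of rows are marked, the authors' deposited table marks LOC100811820, AOS2 and LOC100818208 and not VLXB. The limma fit called VLXB in that pair (difference -4.27, adjusted p = 5.02e-05), the pair whose stem EFN values are 657, 748 and 9786. Between pre2 and secretory the authors' deposited table marks LOC100811820 and LOC100818208, the same 2 called in limma, where 29.9% of its rows are marked. AOC6 carries no mark in any of the 6.

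Library 3 of stem EFN held 9786 of VLXB, against 657 and 748 in the other stem libraries. The same library held 17904 of LOC547820, a 31 kDa protein paired with an Arabidopsis acid phosphatase and of the vegetative storage protein type in soybean, against 45 and 165. It also held 9164 of LOX9, against 2492 and 1297. It did not stand out for LOC100811820 (978) or AOS2 (61), where it was the lowest stem library, and its wound sum, 253, was the lowest of the 3. LOC547820 was listed at 0 in leaf, held 2128, 1188 and 39 in leaf EFN, and held 26 to 294 in the flower. In leaf EFN, library 3 was instead the lowest for both VLXB (700) and LOC547820 (39).

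**Figure D3:**
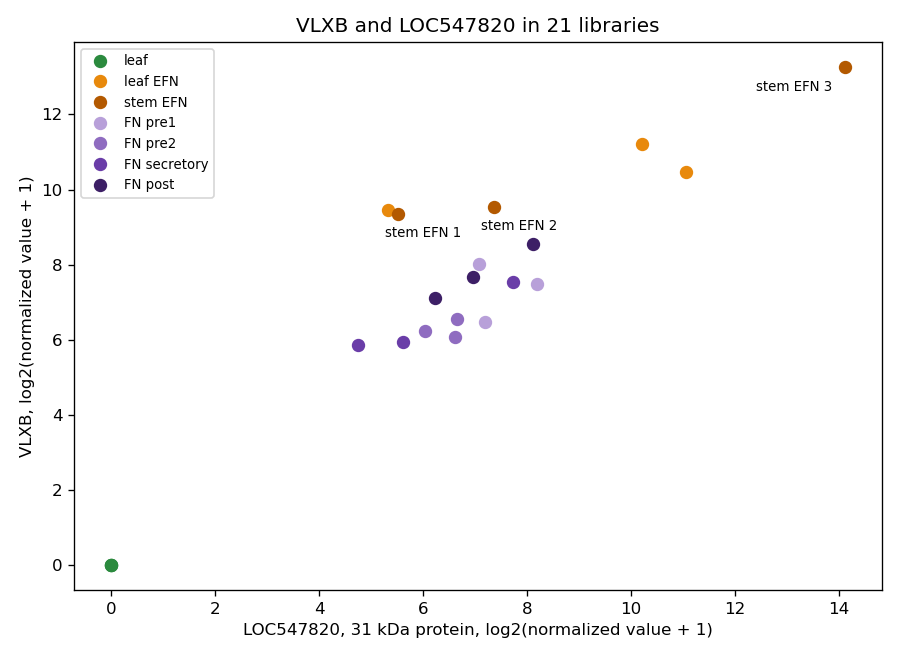
VLXB against LOC547820, both as log2(normalized value + 1), 1 point per library in 21 libraries. All 3 leaf libraries lie at 0 on both axes, and library 3 of stem EFN (9786 and 17904) lies at the far corner.

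Likeness was measured as Pearson's r of log2(value + 1) over the 21 libraries, which share tissue differences and so are not independent; it is a description only. For VLXB the 3 most alike rows were the cell number regulator LOC100797735 (0.924), the transcription factor BZIP72 (0.923) and LOC547820 (0.923). LOC100811820 was most like the uncharacterized LOC100798313 (0.954), the plasma membrane aquaporin LOC100791447 (0.948) and the nitrate and peptide transporter family row LOC100800628 (0.944). AOS2 was most like the S-adenosylmethionine synthase LOC100777770 (0.964), flavanone 3-hydroxylase F3H (0.942) and the row 4CL (0.931). F3H is an enzyme of flavonoid synthesis. The row 4CL is described as 4-coumarate CoA ligase-like 7-like, which leaves its pathway unsettled. LOC100818208 was most like the glycosyltransferase LOC100777956 (0.971), coumarate 4-hydroxylase C4H (0.959) and LOC100306121 (0.954). For AOC6, at a few reads a library, the 3 closest rows (LOC100791600, LOC100815344 and LOC100811327) reached only 0.837, 0.781 and 0.76. Among the 5, LOC100811820 and AOS2 were the closest pair (0.904), followed by LOC100811820 and LOC100818208 (0.859), while VLXB and LOC100818208 were at -0.080.

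The other rows of the pathway were taken from lists of Arabidopsis loci by the match in the table. The 14 synthesis rows besides the 5 moved both ways. In leaf EFN against leaf 7 were higher and 4 lower, with a median difference of 0.53. In stem EFN 5 were higher and 2 lower (median 0.47). In floral nectaries against EFN 7 were higher and 4 lower (median 0.39), where 4 of the 5 were lower. Those counts stand beside the shares of all rows given for each comparison above.

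Of the other lipoxygenases, all 3 are paired with Arabidopsis LOX1, a 9-lipoxygenase. LOX9 differed in pattern from LOC547869 and LOX2, which both rose at the secretory stage. LOX9 held 5983, 5184 and 5470 in leaf and 1033, 1446 and 1753 in leaf EFN, a fall of 2.01 (SE 0.58, adjusted p = 0.00832), opposite in direction to VLXB. Stem EFN held 2492, 1297 and 9164 of LOX9, which was not called there against leaf. In the flower LOX9 fell by 5.17 against leaf (SE 0.458, adjusted p = 4.33e-09), to between 62 and 563. LOC547869 (lipoxygenase-3) was listed at 0 in leaf and held 8, 34 and 46 in leaf EFN. Its floral values were 2, 1 and 1 at pre1, 9, 1 and 3 at pre2, 116, 65 and 154 at the secretory stage, and 108, 172 and 211 at post. LOX2 went from 1, 1 and 1 at pre2 to 29, 19 and 40 at the secretory stage and 42, 42 and 43 at post, with at most 7 in leaf and EFN. From pre2 to secretory LOC547869 rose by 4.62 (SE 0.75, adjusted p = 0.00022) and LOX2 by 3.86 (SE 0.687, adjusted p = 0.00053), a step at which VLXB and LOX9 were not called. Soybean lipoxygenase-2 and lipoxygenase-3 are close relatives, so reads may have been split between LOX2 and LOC547869.

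Desaturases supply the linolenic acid that lipoxygenases use. FAD3-2b is described as a microsomal omega-3 desaturase, so it lies outside the chloroplast, where jasmonate synthesis starts. It held 545, 937 and 302 in leaf and only 23, 21 and 25 in leaf EFN. Stem EFN held 35, 45 and 93. It fell by 4.49 in leaf EFN (SE 0.339, adjusted p = 1.02e-08) and fell by 3.32 in stem EFN (SE 0.339, adjusted p = 7.83e-07), where LOC100811820 and AOS2 rose. At post it held 5028, 6730 and 5851 against 1139, 1168 and 1794 at the secretory stage, a rise of 2.12 (SE 0.339, adjusted p = 0.000869). No other desaturase row of the list was called at that step. FAD7-1 held 2728, 3421 and 1834 in leaf and 1653, 1416 and 601 in leaf EFN, where it was lower without overlap (adjusted p = 0.00595). That call was kept in every alternative. FAD7-1 was also lower in stem EFN than in leaf (difference -1.06, adjusted p = 0.0185, with overlap). The stem call was lost without stem EFN libraries 2 and 3 (difference -1.17), without leaf library 1 (adjusted p = 0.0528) or 2 (0.0823) or stem EFN library 3 (0.108), and when only the libraries compared were fitted (0.0624).

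Beside AOS2, the table pairs LOC100810890 with Arabidopsis allene oxide synthase but describes it as 9-divinyl ether synthase-like, a related P450 enzyme that acts on 9-hydroperoxides. It rose by 2.56 in leaf EFN (SE 0.271, adjusted p = 5.55e-07) and by 1.96 in stem EFN (SE 0.271, adjusted p = 2.47e-05). From pre2 to secretory it rose by 1.52 (SE 0.271, adjusted p = 0.00053), from 381, 421 and 607 to 1390, 1560 and 1069. A further allene oxide synthase, CYP74A1, has no Arabidopsis match in the table and was added after its values were seen. Leaf libraries held 14, 27 and 0, leaf EFN 274, 306 and 236, stem EFN 326, 519 and 291, and floral libraries 5 to 31. CYP74A1 rose by 5.18 in leaf EFN (SE 0.8, adjusted p = 3.89e-05) and 5.62 in stem EFN (SE 0.8, adjusted p = 3.51e-05), and fell by 4.72 from EFN to the flower (SE 0.49, adjusted p = 3.42e-08). AOS2 had the same 3 directions, and reads shared between these 2 copies cannot be told apart.

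**Figure D4:**
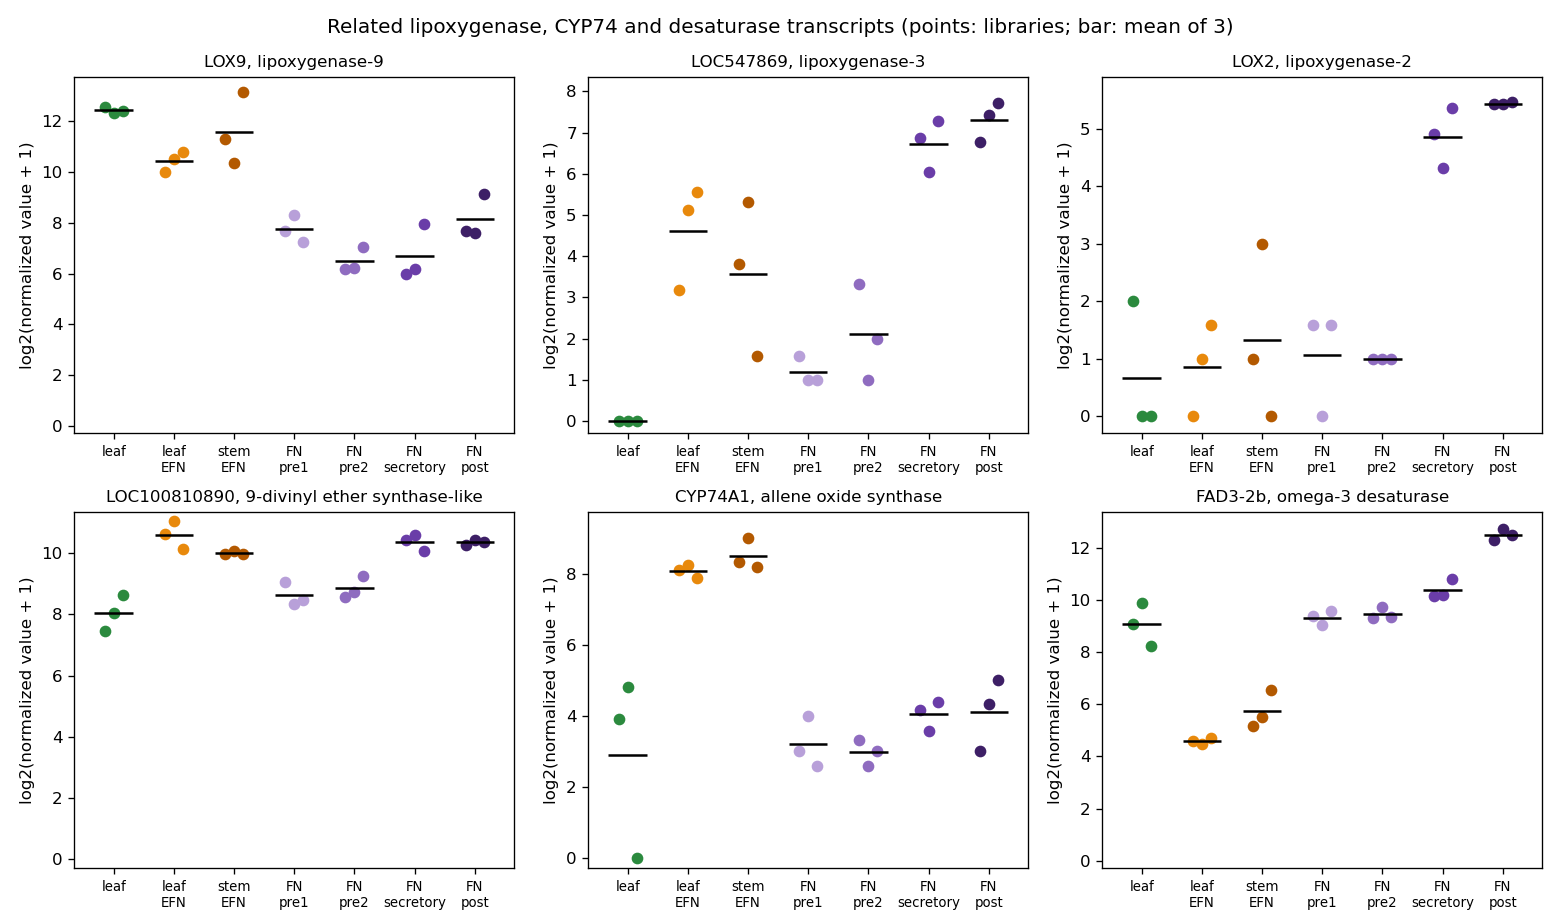
Log2(normalized value + 1) of 3 further lipoxygenases, 2 CYP74 enzymes and the desaturase FAD3-2b; points are libraries and bars the mean of 3. LOX9 has its highest mean in leaf and its highest library in stem EFN (9164). LOC547869 and LOX2 rise at the secretory stage, CYP74A1 is highest in EFN, and FAD3-2b peaks at post.

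In the peroxisomal steps after OPDA reductase, all 6 rows were higher in floral nectaries than in leaf, beside 48% of all rows. In leaf EFN 5 of 6 were higher, beside 28.4% of all rows, and in stem EFN 3 of 6, beside 22.3%. Without stem EFN libraries 2 and 3 the stem call of LOC100807194 was lost (adjusted p = 0.0617). This thiolase, matched to KAT2 of the last beta-oxidation step, held 399, 378 and 306 in leaf and 1513 to 3145 in the flower, a rise of 2.87 (SE 0.174, adjusted p = 1.66e-11). LOC100125585, an acyl-CoA oxidase matched to ACX4, rose by 1.86 (SE 0.139, adjusted p = 3.48e-10). Beta-oxidation also breaks down other fatty acids, and these rows are not particular to jasmonate. LOC100796728, matched to the OPC-8:0 CoA ligase OPCL1, rose by 2.05 in leaf EFN (SE 0.237, adjusted p = 1.58e-06) and 1.70 in stem EFN (SE 0.237, adjusted p = 2.85e-05), and fell by 1.11 from EFN to the flower (SE 0.145, adjusted p = 8.54e-07). Acyl-CoA oxidase ACX1;1 held 1100, 1547 and 1194 at pre1, 675, 450 and 461 at pre2 and 261, 257 and 267 at the secretory stage. It fell by 1.28 (SE 0.222, adjusted p = 0.000599) and then fell by 0.99 (SE 0.222, adjusted p = 0.0037), opposite to LOC100818208 at the second step. In the flower against leaf, LOC100796728, ACX1;2 and LOC100170754 were not called after scaling to equal upper quartiles (adjusted p = 0.0847, 0.126 and 0.262).

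The last activating step joins jasmonic acid to isoleucine. The 1 row paired with JAR1, LOC100794598, is described as an indole-3-acetic acid amido synthetase of the GH3 family, and fell by 1.52 from leaf to floral nectaries (SE 0.164, adjusted p = 7.45e-08), as LOC100811820 and LOC100818208 did. It was also lower in leaf EFN than in leaf (-0.65, adjusted p = 0.0151), where LOC100811820 and AOS2 rose. That call was lost without leaf library 1 (adjusted p = 0.083) or leaf EFN library 2 (0.0537). In stem EFN the row was not called (-0.52). Of 5 rows matched to jasmonate catabolism, 4 were higher in each EFN tissue than in leaf and 4 were higher in the flower, beside 28.4% of all rows in leaf EFN, 22.3% in stem EFN and 48% in the flower. Among them the amidohydrolase row LOC100790664 was not called in leaf EFN (adjusted p = 0.053) or stem EFN (0.12) after rescaling by median ratios, nor in the flower (0.221) after scaling to equal upper quartiles, and neither it (0.391) nor LOC100789607, of the same family (0.675), was called in stem EFN without stem EFN libraries 2 and 3. Means of LOC100790664 were 406 in leaf, 1289 at pre1 and 852 at pre2, but 395 at the secretory stage and 315 at post. The most changed of the catabolism rows was LOC100820497, matched to the jasmonate oxidases JOX1 and JOX2. It is described as leucoanthocyanidin dioxygenase, an enzyme of anthocyanin synthesis. Its leaf libraries held 1, 1 and 9, leaf EFN 743, 720 and 336, stem EFN 214, 520 and 161, and the flower 667 to 1827 (leaf EFN against leaf 7.37, SE 0.518, adjusted p = 4.13e-09). LOC100801693, matched to JOX2 and described as a flavonol synthase or flavanone 3-hydroxylase, held 8, 3 and 1 in leaf and 218 to 1896 in the flower (difference 7.38, SE 0.403, adjusted p = 3.18e-12). These descriptions leave it unsettled whether either row acts on jasmonate.

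**Figure D5:**
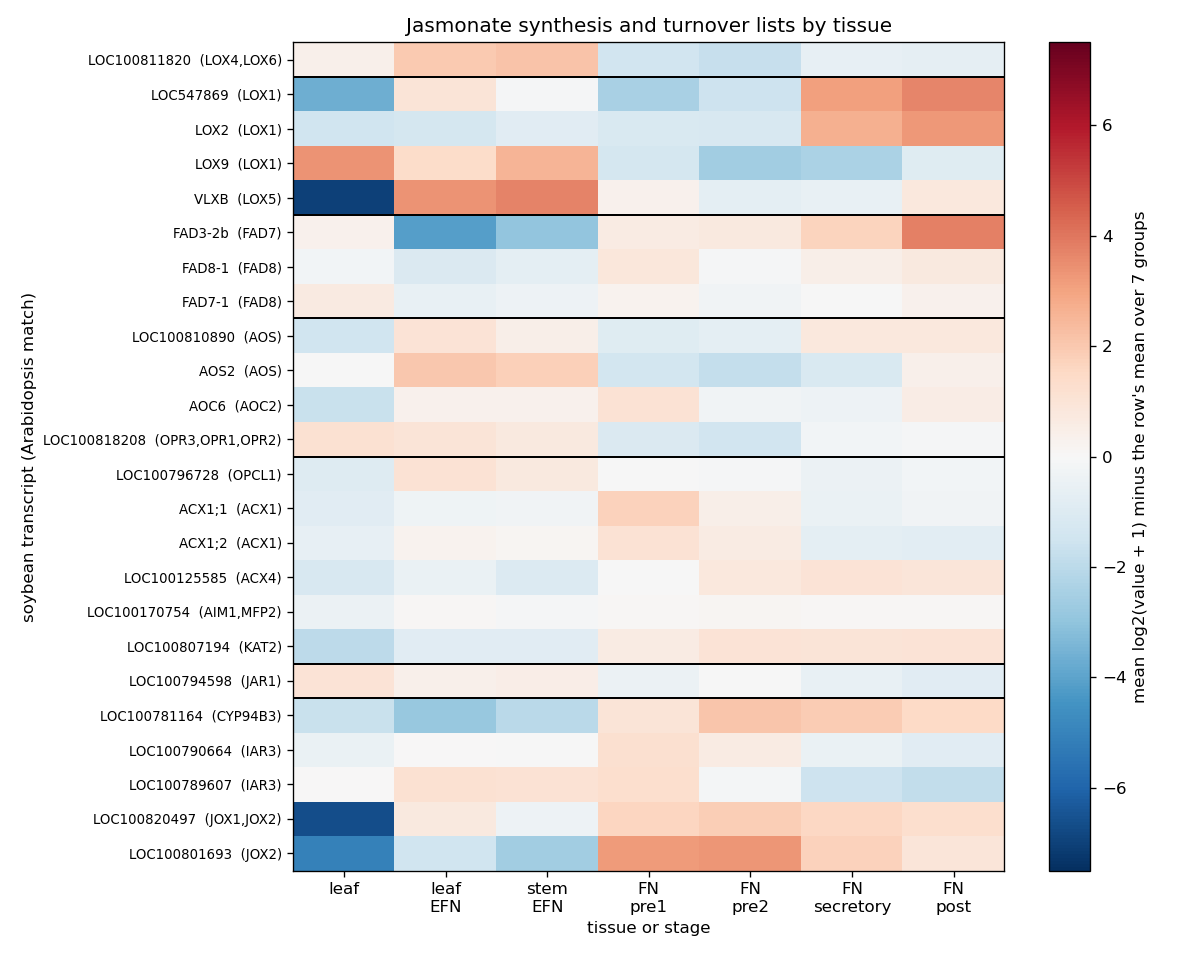
Mean log2(normalized value + 1) of each synthesis and turnover row in each tissue, minus the row's mean over the 7 groups; rows are soybean transcripts with the Arabidopsis match in brackets, and lines part the lists. VLXB and LOC100820497 are lowest in leaf, while the desaturase FAD3-2b is lowest in leaf EFN and highest at post.

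JAZ proteins repress jasmonate responses, and their genes are commonly induced by jasmonate itself. Of 9 signalling rows, 5 were higher and 3 lower in leaf EFN than in leaf, beside 28.4% and 18.5% of all rows. In stem EFN 5 were higher and 1 lower, beside 22.3% and 12.5%. LOC100801449 (TIFY 10A-like) rose by 4.56 in leaf EFN (SE 0.357, adjusted p = 1.56e-08), from 74, 47 and 106 to 1913, 2354 and 1115, and LOC100306332, matched to JAZ1, rose by 3.71 (SE 0.324, adjusted p = 5.62e-08). From secretory to post LOC100801449 rose by 2.59 (SE 0.357, adjusted p = 0.000277), to 1258, 1515 and 3372, an order of libraries shared with AOS2 and the wound sum. Its libraries also followed the wound sum in leaf and leaf EFN, but not in stem EFN, at pre1 or at the secretory stage. LOC100306282, matched to JAZ11, held 39, 38 and 61 at pre2, 461, 447 and 488 at the secretory stage and 63, 97 and 74 at post. It rose by 3.34 (SE 0.271, adjusted p = 6.2e-08) and fell by 2.58 (SE 0.271, adjusted p = 1.4e-05), so it rose at the same step as LOC100811820 and LOC100818208, and fell at a step where neither was called.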

How the data were processed

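RNA of 21 bean libraries, 3 in each of 7 groups, was read as 50 bp paired ends, per the labels' protocols. The deposited values are a score: mapped counts per soybean RefSeq transcript, headed UQN, read here as upper quartile normalized. They are whole numbers, so rounding is inferred and not stated in the headers. Their upper quartiles over the deposited rows are not equal, as scaling to equal ones moved the flower against leaf median from 0.38 to -0.023. Which mapper was used is not given in the sources used here, and the submitters' processing notes name DESeq without a role. Every library but secretory library 1 holds zeros, so rows may have been kept by their value in that library; other transcripts are not analysed here. From low values, libraries hold an estimated 2709939 to 4460670 reads.

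Values were transformed as log2(value + 1). A row was tested where its mean reached 1, which left out 8. All 21 libraries entered 1 model with 7 group means and 14 residual degrees of freedom in limma 3.58.1 (R 4.3.3), with an intensity trend, two-sided contrasts and Benjamini-Hochberg adjustment over all rows. Pairs of neighbours come from the same model. The pipeline was tested on simulated data. Named rows are the 5 enzymes, called rows of the synthesis and turnover lists, up to 2 signalling or response rows a comparison, and the 3 rows most like each enzyme. Rows outside that rule are marked as such. Lists of a hydroperoxide lyase and of pollen markers matched 0 rows. The 5 enzymes and the lists were chosen with earlier results of these data known. Sequences are not printed, since the tables used here hold none.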

Additional observations from a re-analysis of the deposited data

How the results depend on the processing

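Of 22 calls on the 5 enzymes, 17 held in all 9 other settings of scaling, filter, pseudocount and model, in all 21 fits that leave out 1 library and without stem EFN libraries 2 and 3, an alternative chosen after seeing the data; 5 were lost in some, as given beside each result, and 0 changed sign. With a minimum mean of 10, AOC6 was not tested. The cause of each change below was not tested.

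When only the libraries compared were fitted, calls over all rows went from 2209 to 1199 for stem EFN against leaf, from 341 to 66 for stem EFN against leaf EFN, from 1357 to 2691 for secretory against pre2, and from 364 to 679 for post against secretory. Without stem EFN libraries 2 and 3, stem EFN against leaf gave 826 calls, 2 of them among the 5 enzymes in place of 4; stem EFN is then 1 library, assumed to vary like the other groups. Post against secretory had 1 of the 5 called in place of 0 under median ratios, equal upper quartiles and without those libraries. Leaving out 1 library at a time gave 1649 to 2346 calls for stem EFN against leaf (3 to 5 of the 5 enzymes), 100 to 547 for stem EFN against leaf EFN, 617 to 1408 for pre2 against pre1 (main 1237), 833 to 1513 for secretory against pre2 (1 to 2 of the enzymes), and 136 to 604 for post against secretory (0 to 1). The lowest of these came without leaf EFN library 2 (100), pre1 library 1 (617), secretory library 2 (833) and post library 3 (136), and the highest for post against secretory without post library 1 (604).

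Uncalled differences changed sign as follows. AOC6 between stem and leaf EFN was -0.0073 under equal upper quartiles and -0.86 without stem EFN libraries 2 and 3, and VLXB there was -1.02 without them; AOC6 between flower and EFN was 0.0011 with a pseudocount of 10 and 0.36 without them. With 1 library left out, stem EFN minus leaf EFN ran from -0.46 to 0.44 for AOC6, -0.92 to 1.02 for VLXB, -0.29 to 0.54 for LOC100811820, -0.50 to 0.041 for AOS2 and -0.43 to 0.044 for LOC100818208. AOC6 ran from -0.29 to 0.16 for flower minus EFN and -0.35 to 0.15 for secretory minus pre2, VLXB from -0.38 to 0.47 for secretory minus pre2, and LOC100811820 from -0.24 to 0.069 for post minus secretory.

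Replicate numbers do not pair the libraries by these data: the deviations of 63 same-numbered pairs correlated at -0.255 to 0.189 (median -0.012), with 5 over 0.1. With the replicate number as a block, calls were 2896 for leaf EFN and 2128 for stem EFN against leaf, 301 between them, 4782 for flower against leaf, 5004 for flower against EFN, 1157, 1281 and 327 for the 3 steps between floral stages and 3522 among the stages, and the number of enzymes called was the same in each. Depth limits AOC6 and the low AOS2 values, where a few reads stand behind each library.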

Other observations

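The 4 rows matched to the list of jasmonate responses were almost wholly floral. All but LOC100795218 are paired with the same Arabidopsis locus, MYB24. Rows may have been kept by their value in a secretory library, so response rows confined to leaf or EFN may be missing. Signalling rows were not confined to the flower, with 5 of 9 higher and 3 lower in leaf EFN than in leaf. LOC100795218, a stem 28 kDa glycoprotein-like row paired with the Arabidopsis vegetative storage protein VSP2, was listed at 0 in leaf, held at most 58 in any EFN library, and held 13269, 4094 and 4378 at pre1, 1310, 566 and 667 at pre2, 462, 412 and 690 at the secretory stage, and 870, 402 and 244 at post. It fell by 2.97 from pre1 to pre2 (SE 0.94, adjusted p = 0.0326 in limma), with no overlap. The other storage protein row, LOC547820, also at 0 in leaf, had its highest values in library 3 of stem EFN and libraries 1 and 2 of leaf EFN, while its other EFN libraries were within its floral range. MYB182 and MYB98, both paired with Arabidopsis MYB24, a jasmonate-response factor of petals and stamens, held 0 to 3 and 0 to 7 in leaf and EFN and 459 to 3494 and 688 to 6360 in the flower. MYB182 fell by 2.10 from pre2 to secretory (SE 0.335, adjusted p = 0.000185 in limma), the step at which LOC100811820 and LOC100818208 rose.

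A further reductase-like row, LOC100816003, was named after its values were seen. It held 12, 12 and 0 in leaf, 1, 3 and 45 in leaf EFN, 0 in all stem EFN and pre1 libraries, and at most 12 at later floral stages.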
